A study of Arabidopsis thaliana with 12 samples.

Results

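The genes described here are 10 Arabidopsis thaliana transcription factor genes known for setting the upper and lower sides of leaves and floral organs. They are 4 members of the YABBY family (YAB1, YAB2, YAB3 and YAB5), the 4 KANADI genes (KAN1 to KAN4), and the partners Asymmetric Leaves 1 (AS1) and Asymmetric Leaves 2 (AS2). They were chosen by locus identifier from the 34262 loci of the count tables, with no threshold on any value. The families were selected on earlier results of these libraries, in which counts differed between induced and mock roots, so the values below describe these genes and their p-values are not independent support. After a filter on low counts, 7 of the 10 genes remained among the 21439 genes tested. YAB2, YAB3 and YAB5 did not pass it.

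All plants carried 35S:XVE>>PLT5-TagRFP, in which the 35S promoter, broadly active across tissues, drives XVE, a transcription factor that estradiol switches on. Active XVE then turns on PLT5, an AP2-domain transcription factor gene, fused to the red fluorescent protein TagRFP. Induced roots received the inducer labelled EST for 8 h or 24 h, and mock roots of the same genotype received DMSO for the same times. Each of the 4 groups had 3 biological replicates, and each of the 12 libraries pooled 1.5 cm root segments from below the root-hypocotyl junction of 15 plants, with visible lateral roots taken off. The labels describe 1 genotype and do not say how many independent transgenic lines it stands for.

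In a leaf primordium, KANADI and YABBY proteins act on the lower (abaxial) side, while HD-ZIP III proteins and the AS1 and AS2 proteins act on the upper (adaxial) side. KANADI proteins are mostly repressors, and in leaves KAN1 represses AS2. AS1, a MYB-domain protein, and AS2, a LOB-domain protein, bind together and keep class I KNOX genes off in leaves. YABBY genes are known chiefly from shoot organs, whereas KANADI and HD-ZIP III genes also act in vascular tissue.

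The 12 libraries held between 34958324 and 41447647 counts. PLT5 itself averaged 2467 ± 143 CPM, counts scaled to a common library total, in the induced roots and 13.3 ± 1.49 CPM in the mock roots after 8 h (SD, n = 3 each). After 24 h PLT5 averaged 2795 ± 123 CPM in induced roots and 14.1 ± 2.78 CPM in mock roots, and its counts do not separate the transgene from the native gene. That scaling used the trimmed mean of M values (TMM), and a gene was called changed at an adjusted p under 0.05 in edgeR's quasi-likelihood test over all genes tested. At 8 h, 22.3% of the tested genes were called higher and 23.1% lower in induced than in mock roots. At 24 h these shares were 38.3% higher and 34.0% lower, so a call alone did not set a gene apart from the rest.

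Of the 7 polarity genes that passed the filter, YAB1, KAN1 and KAN4 rose in induced roots at 8 h and KAN2, KAN3 and AS1 fell, while AS2 was not called. At 24 h YAB1, KAN1, KAN4 and AS2 rose and KAN2, KAN3 and AS1 fell. YAB1 and AS2 had almost no counts in mock roots, whereas the KANADI genes and AS1 were already present there. The median log2 fold change of the 7 genes was 0.49 at 8 h and 1.70 at 24 h, in each case the value of KAN1, beside medians of 0.02 and 0.06 over all tested genes. YAB1 and AS2 passed the filter only through their counts in induced roots and so raise these medians by construction. Without them the median of the other 5 tested genes was -0.36 at 8 h and -0.62 at 24 h, so no common direction of the set is read from a median.

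**Figure D1:**
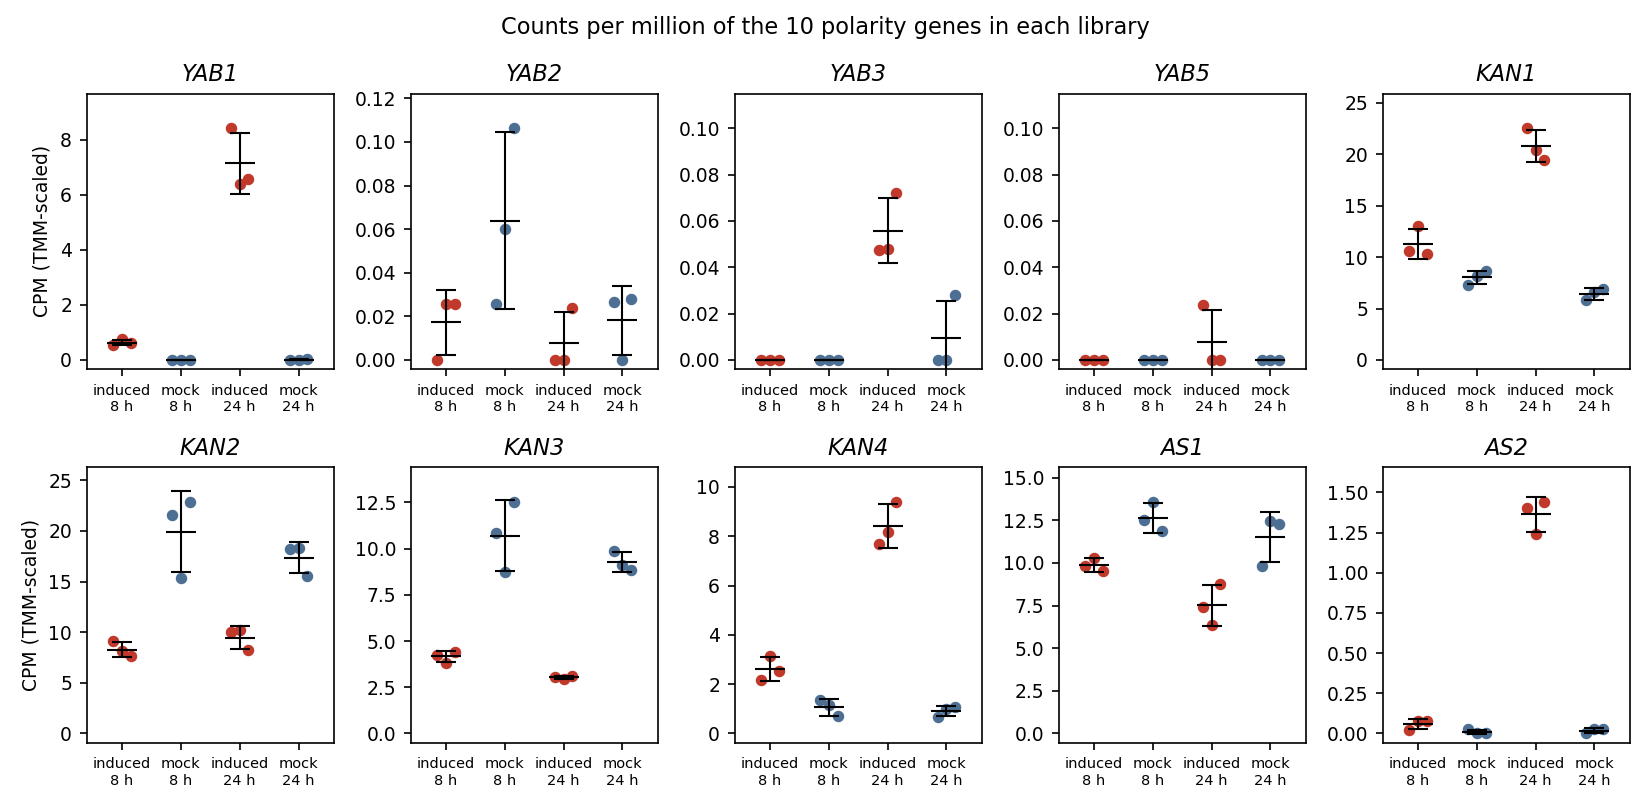
CPM (TMM-scaled, linear axes of different height) of each of the 10 genes in every library, with induced roots in red and mock roots in blue. Points are libraries, and black bars give the mean and SD of 3 libraries. YAB1 and AS2 stood well above 0 in induced roots at 24 h, and KAN2 and KAN3 were lower in induced than in mock roots at both times.

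YAB1 (AT2G45190, also AFO or FILAMENTOUS FLOWER, chromosome 2, 18628252 to 18630779, minus strand, TAIR10) encodes a zinc finger and YABBY domain protein of the abaxial side of leaves and flowers. At 8 h its counts were 22, 29 and 24 in induced roots, against 0 in each of the 3 mock libraries. At 24 h they were 353, 268 and 274 in induced roots, against 0, 0 and 1 in mock roots. Every induced library lay above every mock library at each time. The mean level was 0.635 ± 0.108 CPM in induced roots at 8 h (SD, n = 3), while 0 counts in the mock libraries allow up to 0.0272 CPM, taken as 3 counts over that group. Set against that limit, YAB1 was 23.2-fold higher in induced roots at 8 h (adjusted p = 1.85e-05, edgeR). This figure leaves out the counting error of the induced libraries. YAB1 passed the filter only through its induced libraries, so its p-values are descriptive and not support. At 24 h the mean was 7.13 ± 1.11 CPM in induced roots and 0.0093 ± 0.016 CPM in mock roots (SD, n = 3 each; adjusted p = 9.64e-09, edgeR). The ratio of the summed counts, 895 against 1, was 809 after scaling, with a 95% exact interval of 145 to 32000 that covers counting error only.

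Within the induced roots, YAB1 was higher at 24 h than at 8 h by a log2 difference of 3.49 ± 0.22 (SE; adjusted p = 4.38e-07, edgeR), a comparison added after the values were seen. In these bulk samples, more cells that express a gene and more RNA of that gene per cell cannot be told apart, and likewise for fewer cells and less RNA.

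The other YABBY genes stayed at a handful of counts. YAB2 (AT1G08465), a leaf gene of the same family, had 0, 1 and 1 counts in induced roots and 1, 2 and 4 in mock roots at 8 h. At 24 h it had 0, 0 and 1 in induced roots and 1, 0 and 1 in mock roots, so the groups overlapped. YAB3 (AT4G00180), which acts redundantly with YAB1 in leaves, had no count in any library at 8 h. At 24 h it had 2, 2 and 3 counts in induced roots, against 0, 0 and 1 in mock roots. The induced libraries lay above the mock libraries, but the ratio of 6.33 had a 95% exact interval of 0.813 to 285 and the adjusted p was 0.124 when no filter was applied (edgeR). YAB5 (AT2G26580) had 1 count in a single induced library at 24 h and none elsewhere.

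Of the YABBY genes outside the set, CRC, a carpel gene, had 4 counts over the induced libraries at 24 h and INO, an ovule gene, had 1, and neither had any in mock roots or at 8 h. YAB1 made up 97.5% of the summed level of the 4 YABBY genes in induced roots at 8 h and 99.2% at 24 h, in CPM per kilobase of exon. Between spliced transcripts of YAB1 and the other 3, the longest shared run was 19 bases.

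AS2 (AT1G65620, chromosome 1, 24398143 to 24400989, plus strand, TAIR10) had 1, 3 and 3 counts in induced roots at 8 h, against 1, 0 and 0 in mock roots. The groups met at 1 count, and the ratio of 6.50 had a 95% exact interval of 0.836 to 293. AS2 was not called at 8 h (adjusted p = 0.0651, edgeR), but it was called without induced replicate 1 (0.0419) and without mock replicate 1 (0.0322). Across all alternatives at 8 h its adjusted p ran from 0.0322 to 0.188. At 24 h its counts were 59, 52 and 60 in induced roots, against 0, 1 and 1 in mock roots. No library overlapped, and the means were 1.36 ± 0.107 CPM in induced roots and 0.0176 ± 0.0153 CPM in mock roots (SD, n = 3 each). The ratio was 77.3 with a 95% exact interval of 21.1 to 644 (adjusted p = 3.13e-07, edgeR). AS2 too passed the filter only through its induced libraries, so its p-values are descriptive and not support. Within the induced roots AS2 was higher at 24 h than at 8 h by a log2 difference of 4.45 ± 0.41 (SE; adjusted p = 1.72e-06, edgeR).

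AS1 (AT2G37630, chromosome 2, 15781232 to 15783480, minus strand), the partner of AS2, had 9.80, 10.3 and 9.51 CPM in induced roots at 8 h, against 12.5, 13.6 and 11.9 CPM in mock roots. After 24 h AS1 had 7.39, 6.37 and 8.75 CPM in induced roots, against 9.82, 12.5 and 12.3 CPM in mock roots. The induced libraries were the lower ones at each time. AS1 fell by 0.36 ± 0.117 at 8 h (adjusted p = 0.0253) and fell by 0.62 ± 0.119 at 24 h (adjusted p = 0.000473) on the log2 scale (SE, edgeR). The call at 8 h was lost without induced replicate 1 (0.056), induced replicate 3 (0.0712), mock replicate 1 (0.052) or mock replicate 2 (0.087), within a range of 0.00742 to 0.087 over all alternatives. AS1 shares 330 exonic bases with ACT1, an actin gene on the opposite strand, and ACT1 had log2 fold changes of 0.47 at 8 h and 1.14 at 24 h, opposite in sign to AS1. The libraries were made with a stranded kit, but the strand setting of the counting is not given, and the part of ACT1 reads in the AS1 counts was not tested.

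KAN1 (AT5G16560, chromosome 5, 5406863 to 5411766, minus strand, TAIR10), the best known abaxial KANADI gene, had 10.58, 12.98 and 10.34 CPM in induced roots at 8 h, against 7.31, 8.19 and 8.61 CPM in mock roots. After 24 h KAN1 had 22.5, 20.4 and 19.4 CPM in induced roots, against 5.80, 6.58 and 6.85 CPM in mock roots. The groups were apart at each time and much further apart at 24 h. KAN1 rose by 0.49 ± 0.106 on the log2 scale at 8 h (adjusted p = 0.00255) and by 1.70 ± 0.106 at 24 h (adjusted p = 2.3e-08; SE, edgeR). KAN1 shares 25 exonic bases with AT5G16550 on the opposite strand, whose log2 fold changes were 0.06 at 8 h and -0.51 at 24 h. It also overlaps AT5G02555 in antisense over 435 bases, a locus with 2 counts summed over the induced libraries and 1 over the mock libraries at 24 h, and 0 at 8 h. The part of these loci in the KAN1 counts was not tested.

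KAN4 (AT5G42630, also ABERRANT TESTA SHAPE, chromosome 5, 17073673 to 17075904, minus strand), known for growth of the ovule integument, had 2.17, 3.16 and 2.53 CPM in induced roots at 8 h, against 1.36, 1.14 and 0.691 CPM in mock roots. After 24 h KAN4 had 7.67, 8.19 and 9.40 CPM in induced roots, against 0.665, 0.976 and 1.09 CPM in mock roots. Induced libraries were higher throughout. KAN4 rose by 1.30 ± 0.239 on the log2 scale at 8 h (adjusted p = 0.000876) and by 3.21 ± 0.231 at 24 h (adjusted p = 8.65e-08; SE, edgeR), a 9.26-fold higher mean CPM at 24 h.

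KAN2 (AT1G32240, chromosome 1, 11625616 to 11630745, minus strand), which acts redundantly with KAN1 in leaves, had 9.11, 8.12 and 7.60 CPM in induced roots at 8 h, against 21.6, 15.4 and 22.9 CPM in mock roots. After 24 h KAN2 had 9.98, 10.2 and 8.20 CPM in induced roots, against 18.2, 18.3 and 15.6 CPM in mock roots. Every induced library lay below every mock library. KAN2 fell by 1.27 ± 0.143 at 8 h (adjusted p = 2.09e-05) and fell by 0.87 ± 0.141 at 24 h (adjusted p = 0.000115) on the log2 scale (SE, edgeR).

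KAN3 (AT4G17695, chromosome 4, 9847933 to 9850927, minus strand), a further abaxial member, had 4.26, 3.83 and 4.43 CPM in induced roots at 8 h, against 10.8, 8.72 and 12.5 CPM in mock roots. After 24 h KAN3 had 3.05, 2.96 and 3.10 CPM in induced roots, against 9.87, 9.11 and 8.83 CPM in mock roots. The groups did not overlap. KAN3 fell by 1.36 ± 0.123 at 8 h (adjusted p = 3.48e-06) and fell by 1.61 ± 0.126 at 24 h (adjusted p = 1.89e-07) on the log2 scale (SE, edgeR).

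**Figure D2:**
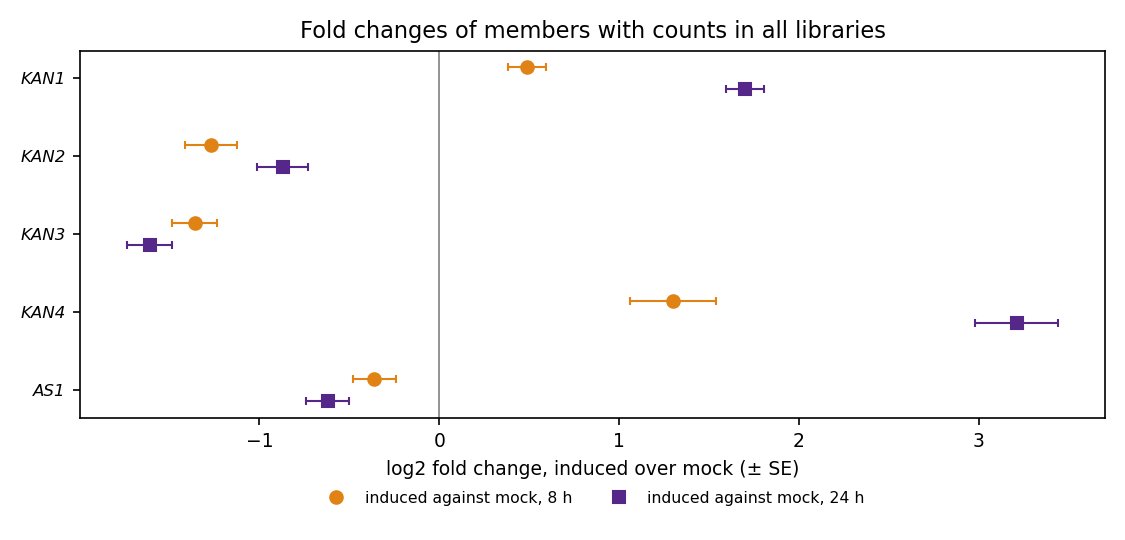
Log2 fold changes of induced over mock roots (points, with SE as bars) for the 5 genes with counts in all 12 libraries, at 8 h (circles) and 24 h (squares). KAN1 and KAN4 were above 0 and further from it at 24 h, while KAN2, KAN3 and AS1 were below 0 at both times.

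Whether a gene's response differed between 24 h and 8 h was tested as the difference of the responses. It was larger at 24 h for KAN1, by 1.2 ± 0.15 on the log2 scale (adjusted p = 5.69e-05), and for KAN4, by 1.91 ± 0.337 (adjusted p = 0.000755; SE, edgeR). Over all tested genes 18.2% were called higher and 22.6% lower in this comparison. The differences for KAN2 (0.39), KAN3 (-0.25) and AS1 (-0.26) were not called, with adjusted p of 0.137, 0.279 and 0.235. For YAB1 and AS2 this difference rests on mock groups with 0 to 2 counts, and its SE was 3.35 for YAB1 and 1.94 for AS2, so it was not resolved.

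The mock roots themselves gave no called polarity gene between 24 h and 8 h, out of 7 tested with edgeR. At an unadjusted p under 0.05 there was 1, KAN1, with a log2 difference of -0.32, and DESeq2 called 0. YAB1 and AS2 had 0 to 2 counts in a mock group (SE 1.41 and 1.17), so a change between mock times could not be resolved for them. Among all tested genes 0.490% were higher and 0.173% lower in mock roots at 24 h. In induced roots, 27.9% of genes were called higher and 30.2% lower at 24 h than at 8 h. There KAN1 rose by 0.88 and KAN4 by 1.69, and KAN3 fell by 0.46 and AS1 by 0.39, on the log2 scale, with adjusted p of 1.12e-05, 1.7e-05, 0.00965 and 0.013. KAN2 had a log2 difference of 0.19 (adjusted p = 0.279).

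The order of the levels, in CPM per kilobase of exon, was different in induced and mock roots. In induced roots at 24 h KAN1 stood first with 8.70, followed by YAB1 with 5.82, KAN4 with 5.15, AS1 with 3.91, KAN2 with 3.69, KAN3 with 2.17 and AS2 with 0.529. In that order the ranges of YAB1 and KAN4 overlapped, and so did those of AS1 and KAN2. In mock roots at 24 h KAN2 stood first with 6.76, then KAN3 with 6.63, AS1 with 6.001, KAN1 with 2.69 and KAN4 with 0.556, and the ranges of the first 3 overlapped between neighbours. The remaining 5 genes were each at or below 0.0149 there.

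In induced roots at 8 h AS1 with 5.14 and KAN1 with 4.73 overlapped at the top, above KAN2 with 3.23 and KAN3 with 2.98, which also overlapped, KAN4 with 1.60 and YAB1 with 0.518. In mock roots at 8 h the order was KAN2 with 7.77, KAN3 with 7.65, AS1 with 6.59, KAN1 with 3.36 and KAN4 with 0.650, and neighbours among the first 3 again overlapped.

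The make-up of the KANADI family was different in induced and mock roots. KAN1 and KAN4 made up 44.1% and 26.2% of the summed level per kilobase in induced roots at 24 h, against 16.2% and 3.36% in mock roots. KAN2 and KAN3 made up 18.69% and 11.02% in induced roots at 24 h, against 40.6% and 39.85% in mock roots. At 8 h KAN1 held 37.6% in induced roots and 17.6% in mock roots, and KAN4 held 12.7% in induced roots and 3.44% in mock roots. The summed level at 8 h was 12.5 (12.0 to 13.3) CPM per kilobase in induced roots and 19.4 (16.4 to 21.9) in mock roots, given as the mean and range of 3 libraries. At 24 h it was 19.7 (19.3 to 20.2) in induced roots and 16.6 (15.91 to 16.99) in mock roots. The sum was therefore lower in induced roots at 8 h and slightly higher at 24 h, with no overlap of the ranges, and total library size in place of TMM gave the same order. Between spliced transcripts of the 4 genes the longest shared run was 20 bases.

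**Figure D3:**
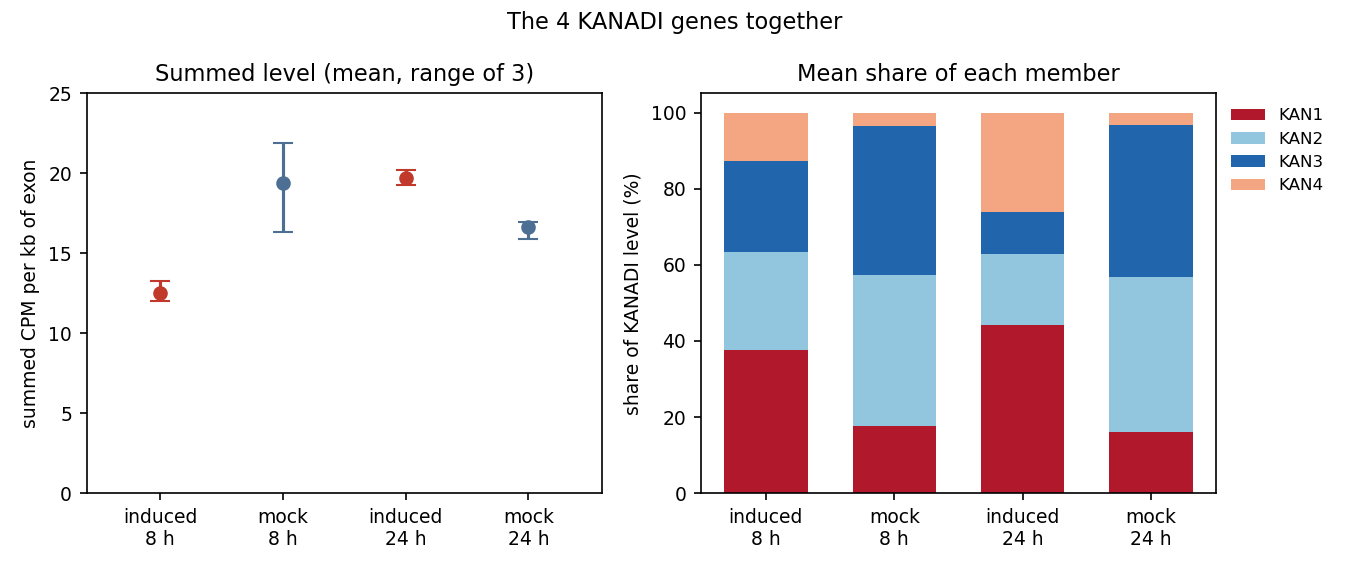
Left, summed level of the 4 KANADI genes in CPM per kilobase of exon (mean and range of 3 libraries per group); right, the mean share of each gene in that sum. KAN1 and KAN4 together filled the larger part in induced roots at 24 h, and KAN2 and KAN3 did so in mock roots.

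The 300 bases before the annotated start are shown for the 4 genes that rose, since they changed together at 24 h. They are read 5′ to 3′ on the strand of the gene from the TAIR10.1 genome of RefSeq, in which the 10 genes have the same coordinates as in TAIR10. The windows are chr2:18630780-18631079 (minus) for YAB1, chr5:5411767-5412066 (minus) for KAN1, chr5:17075905-17076204 (minus) for KAN4 and chr1:24397843-24398142 (plus) for AS2. Capitals mark matches, on either strand, to GAATAA or GAATAT, forms of the sequence that KAN1 is known to bind, and to the auxin response elements TGTCTC and TGTCGG.
YAB1: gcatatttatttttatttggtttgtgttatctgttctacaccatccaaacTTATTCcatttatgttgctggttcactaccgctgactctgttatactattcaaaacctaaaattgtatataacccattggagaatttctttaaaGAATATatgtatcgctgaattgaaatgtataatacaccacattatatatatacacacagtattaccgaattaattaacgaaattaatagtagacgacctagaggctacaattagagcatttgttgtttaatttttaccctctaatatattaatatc
KAN1: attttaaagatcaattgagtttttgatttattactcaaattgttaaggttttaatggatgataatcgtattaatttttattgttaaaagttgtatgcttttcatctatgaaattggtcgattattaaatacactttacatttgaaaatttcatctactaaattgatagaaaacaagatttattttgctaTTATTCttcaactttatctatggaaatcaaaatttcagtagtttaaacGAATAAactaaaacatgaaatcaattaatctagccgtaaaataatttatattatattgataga
KAN4: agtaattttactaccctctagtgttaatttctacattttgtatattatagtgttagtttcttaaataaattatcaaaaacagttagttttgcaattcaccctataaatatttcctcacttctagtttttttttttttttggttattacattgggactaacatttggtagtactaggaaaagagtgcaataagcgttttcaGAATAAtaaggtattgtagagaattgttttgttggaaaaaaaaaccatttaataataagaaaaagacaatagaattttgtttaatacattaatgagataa
AS2: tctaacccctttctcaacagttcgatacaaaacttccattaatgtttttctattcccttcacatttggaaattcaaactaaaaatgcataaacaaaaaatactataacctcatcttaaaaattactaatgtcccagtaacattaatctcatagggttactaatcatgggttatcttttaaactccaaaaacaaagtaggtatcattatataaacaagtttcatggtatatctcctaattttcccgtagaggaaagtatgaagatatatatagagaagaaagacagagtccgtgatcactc

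YAB1 held GAATAA once on the opposite strand, 250 bases before the start, and GAATAT once at 156 bases. KAN1 held GAATAA at 111 bases (opposite strand) and at 63 bases, KAN4 held it at 100 bases, and AS2 held none of the 4 sequences. Among the genes that fell, KAN2 held GAATAA at 293 bases (opposite strand) and KAN3 at 199 bases, and AS1 held TGTCTC at 42 bases. In all, 6 of the 10 windows held GAATAA, 1 held GAATAT and 2 held TGTCTC. Among 27443 windows of the same length before protein-coding genes, 28.7% held GAATAA, 26.7% held GAATAT, 12.97% held TGTCTC and 4.91% held TGTCGG. The 10 windows had between 69.3% and 79.0% A or T, beside a median of 68.7% over all windows, and GAATAA and GAATAT consist mostly of these bases. These matches describe letters in a window and are not evidence of binding.

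Other genes of the leaf polarity pathway moved in both directions, as did the tested genes as a whole. Over all tested genes 22.3% rose and 23.1% fell at 8 h, and 38.3% rose and 34.0% fell at 24 h. The counts per list below are to be read beside these shares, and a count alone does not set a list apart. Of the 5 co-repressor genes whose proteins bind YABBY proteins, 3 rose and none fell at each time, with medians of 0.26 at 8 h and 0.40 at 24 h on the log2 scale. SEU averaged 105.6 ± 1.09 CPM in induced roots and 71.8 ± 2.47 CPM in mock roots at 24 h (log2 fold change 0.56, adjusted p = 3.61e-07). LUG averaged 74.3 ± 1.82 CPM in induced roots and 53.2 ± 3.52 CPM in mock roots at 24 h (log2 fold change 0.48, adjusted p = 2.01e-05; SD, n = 3 each, edgeR). Scaled by total library size, 4 of the 5 rose at 8 h and all 5 at 24 h.

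The list of abaxial auxin response factors and of the trans-acting siRNA machinery that limits them had 7 tested genes. At 8 h 2 rose and 3 fell, and at 24 h 3 rose and 2 fell, with medians of -0.17 and 0.11. Scaled by total library size, 3 rose and 3 fell at 8 h with a median of -0.08, and 4 rose and 2 fell at 24 h with a median of 0.25. ETT, an abaxial auxin response factor that partners with KANADI proteins, averaged 13.2 ± 0.592 CPM in induced roots and 45.5 ± 2.41 CPM in mock roots at 24 h (log2 fold change -1.78, adjusted p = 3.51e-10). TAS3, the precursor RNA of the siRNAs that target ETT, averaged 3.94 ± 0.353 CPM in induced roots and 20.2 ± 2.27 CPM in mock roots at 24 h (log2 fold change -2.36, adjusted p = 5.14e-09; SD, n = 3 each, edgeR). So of the abaxial genes, YAB1, KAN1 and KAN4 rose in the same libraries in which KAN2, KAN3 and ETT fell. ARF4, the other abaxial auxin response factor of the list, was not called at either time in the main fit (8 h log2 fold change -0.17, adjusted p = 0.0684, edgeR). With relative log expression (RLE) factors, another scaling, 2 of the list rose and 4 fell at 8 h, ARF4 among those that fell. At 24 h RLE factors gave 3 rising and 2 falling.

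Of the 5 adaxial HD-ZIP III genes, 1 rose and 2 fell at 8 h, and none rose and 3 fell at 24 h, with medians of -0.19 and -0.26. Scaled by total library size, none fell at 8 h and 2 at 24 h. With RLE factors 1 rose and 3 fell at 8 h, and none rose and 3 fell at 24 h. ATHB8, known from the vascular cambium, averaged 74.6 ± 5.02 CPM in induced roots and 122.2 ± 3.87 CPM in mock roots at 24 h (log2 fold change -0.71, adjusted p = 7.68e-07). CNA averaged 106.4 ± 4.01 CPM in induced roots and 168.0 ± 10.1 CPM in mock roots at 24 h (log2 fold change -0.66, adjusted p = 9.07e-07; SD, n = 3 each, edgeR).

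Of the class I KNOX genes, which AS1 and AS2 keep off in leaves, 3 of 4 could be tested. None rose, and 2 fell at 8 h and 3 at 24 h. KNAT6 averaged 12.5 ± 0.474 CPM in induced roots and 31.4 ± 1.55 CPM in mock roots at 24 h (log2 fold change -1.32, adjusted p = 3.84e-09). KNAT2, a low gene, averaged 0.318 ± 0.182 CPM in induced roots and 0.737 ± 0.162 CPM in mock roots at 24 h (log2 fold change -1.20, adjusted p = 0.0224; SD, n = 3 each, edgeR). STM, which did not pass the filter, had 18 counts summed over the induced libraries and 9 over the mock libraries at 24 h, and 19 in induced and 17 in mock roots at 8 h. At 24 h every induced library lay above every mock library for STM, opposite to the 3 tested KNOX genes.

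BOP1 and BOP2 encode co-activators that promote AS2 in leaves. BOP1 averaged 0.611 ± 0.231 CPM in induced roots and 1.21 ± 0.146 CPM in mock roots at 8 h (log2 fold change -0.97, adjusted p = 0.0106). At 24 h it averaged 4.38 ± 0.958 CPM in induced roots and 1.36 ± 0.139 CPM in mock roots (log2 fold change 1.69, adjusted p = 2.08e-05; SD, n = 3 each, edgeR), so BOP1 fell at 8 h and rose at 24 h. BOP2 fell at each time, by 0.52 at 8 h (adjusted p = 0.000356) and by 1.04 at 24 h (adjusted p = 2.67e-07) on the log2 scale. The leaf margin genes WOX1 and PRS had 6 and 0 counts in induced roots at 24 h, against 0 and 1 in mock roots, and at 8 h WOX1 had 1 in each group and PRS none.

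**Figure D4:**
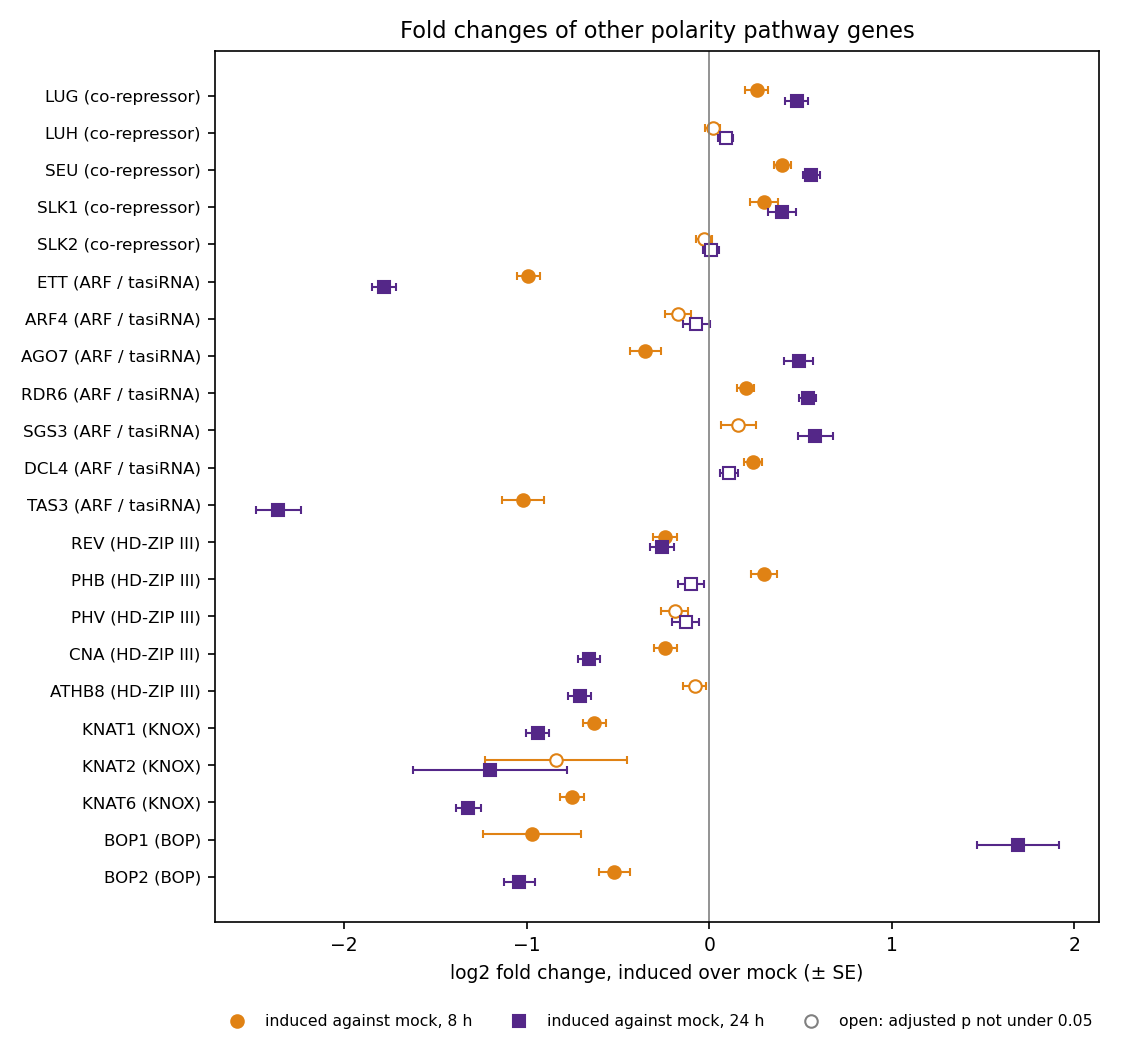
Log2 fold changes of induced over mock roots (points, with SE as bars) for the other polarity pathway genes that passed the filter, at 8 h (circles) and 24 h (squares); open symbols were not called. ETT and TAS3 lay furthest below 0 at 24 h, and BOP1 lay below 0 at 8 h and above it at 24 h.

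By the distance of centred log2 CPM over the 12 libraries, the 3 genes whose pattern was most like that of YAB1 were AT2G40250, SAG29 and WAG2, at distances of 1.71, 1.82 and 1.84. AT2G40250 had 170 counts in induced roots and 4 in mock roots at 8 h, and 1258 in induced roots and 3 in mock roots at 24 h. SAG29 had 106 in induced roots and 8 in mock roots at 8 h, and 1328 in induced roots and 10 in mock roots at 24 h. WAG2, a protein kinase gene, had 588 in induced roots and 47 in mock roots at 8 h, and 3751 in induced roots and 51 in mock roots at 24 h.

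Markers of root and shoot cell types moved as well, and their part in the results above was not tested. Their counts stand beside 22.3% of all tested genes called higher and 23.1% lower at 8 h, and 38.3% and 34.0% at 24 h. The 5 root cambium and periderm markers summed to between 56.1 and 66.2 CPM in induced roots and between 764 and 851 CPM in mock roots at 24 h, and all 5 fell. At 8 h they summed to between 444.7 and 515.9 CPM in induced roots and between 802.7 and 811.1 CPM in mock roots. There 4 fell, and 5 with RLE factors. Of the 7 phloem markers, 1 rose and 5 fell at 24 h, and they summed to between 217.5 and 234.7 CPM in induced roots and between 309.9 and 379.5 CPM in mock roots. At 8 h 1 rose and 4 fell, while 3 fell when scaled by total library size and 5 with RLE factors. The sum at 8 h ran from 384.6 to 437.5 CPM in induced roots and from 308.7 to 371.9 CPM in mock roots. Without SUC2, a sucrose transporter gene and the member that rose, the other 6 summed to between 227.3 and 243.2 CPM in induced roots and between 279.3 and 332.2 CPM in mock roots at 8 h, the opposite order. At 24 h they summed to between 87.1 and 91.8 CPM in induced roots and between 280.1 and 331.6 CPM in mock roots. The 6 shoot meristem and boundary markers summed to between 15.2 and 17.2 CPM in induced roots and between 5.82 and 6.48 CPM in mock roots at 24 h, with 2 rising and 2 falling of 4 tested. CUC2, an organ boundary gene, held most of the difference, with 10.9 ± 0.552 CPM in induced roots and 0.246 ± 0.121 CPM in mock roots at 24 h (SD, n = 3 each). Without CUC2 the other 5 summed to between 4.64 and 5.65 CPM in induced roots and between 5.52 and 6.33 CPM in mock roots at 24 h. Of the 2 that define the shoot meristem, WUS had 14 counts in induced roots and 0 in mock roots at 24 h, and CLV3 had 0 in induced roots and 1 in mock roots. At 8 h the sum of all 6 ran from 9.67 to 10.8 CPM in induced roots and from 6.42 to 7.33 CPM in mock roots, and without CUC2 from 6.03 to 7.36 CPM in induced roots and from 6.12 to 6.88 CPM in mock roots. SUC2, CUC2 and LEC2 were singled out after their values were seen.

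The 6 green tissue markers summed to between 657.5 and 742.8 CPM in induced roots and between 862.8 and 1087 CPM in mock roots at 24 h. None rose and 5 fell, or 3 when scaled by total library size. RBCS1A held most of the sums at 24 h, with means of 589.7 CPM in induced roots and 753.7 CPM in mock roots. The log2 fold change at 24 h was -4.53 for RBCS1B and -3.54 for LHCB1.2, and between -0.51 and -0.28 for the others. These genes were singled out after their values were seen. At 8 h the 6 markers summed to between 1056 and 1273 CPM in induced roots and between 956.1 and 980.3 CPM in mock roots, with 3 rising and 1 falling. The 4 flower markers summed to between 1.32 and 1.62 CPM in induced roots and between 1.14 and 1.33 CPM in mock roots at 24 h. Of 2 tested, AP1 rose and PI was not called. Summed counts at 24 h were 51 in induced and 3 in mock roots for AP1, and 131 and 113 for PI. They were 2 in induced and 22 in mock roots for LFY, and 3 and 4 for AP3, so the sum hides changes in opposite directions. The 3 embryo markers summed to between 0.529 and 0.597 CPM in induced roots and between 0.0250 and 0.0557 CPM in mock roots at 24 h, but LEC2 alone held this difference, with 68 counts in induced roots and 2 in mock roots. FUS3 had 0 counts in induced roots and 3 in mock roots at 24 h, and LEC1 had 2 in induced roots and 0 in mock roots. The 4 root tip markers all rose at 24 h and summed to between 14.53 and 16.04 CPM in induced roots and between 2.90 and 5.29 CPM in mock roots. SCR held the largest part, with means of 8.03 CPM in induced roots and 3.14 CPM in mock roots at 24 h. At 8 h the 4 summed to between 4.63 and 5.26 CPM in induced roots and between 2.71 and 3.99 CPM in mock roots, with 2 rising and none falling.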

How the data were processed

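Each deposited file held whole-number counts per TAIR10 locus for 1 library. How the authors aligned and counted reads, and with which strand setting, is not given in the sources used here. Libraries came from total RNA with a kit that keeps strand, per the labels' protocols, and TAIR10 is named in the submitters' processing notes. The deposited counts were fitted with edgeR 4.0.16 in R 4.3.3 (filterByExpr by group, TMM scaling, quasi-likelihood test, 1 coefficient per group, all 12 libraries), with p-values adjusted over 21439 genes by Benjamini and Hochberg and a threshold of 0.05. The procedure was tested on simulated data. Replicates of a group differed by more than sampling noise, so none was counted as a repeat. Genes, pathway lists and markers were chosen with earlier results of these data known. Named were all 10 genes, every gene of lists of up to 2, the 2 called genes with the largest change at 24 h of longer lists, and the 3 genes most like YAB1. Alternatives were other scalings, DESeq2 1.42.0, no filter, a replicate block, only the groups compared and leaving out each library. RefSeq TAIR10.1 matched 32548 of 34262 loci. Intervals and floors cover counting error only.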

Additional observations from a re-analysis of the deposited data

Results flagged for a closer look

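The response to induction differed between 24 h and 8 h, by the test of that difference in edgeR, for 9 of the named polarity and pathway genes. It was not called for the other named genes that were tested, which were YAB1, KAN2, KAN3, AS1, AS2, SEU, LUG and KNAT2. Marker genes were not included. From lists of more than 2 genes, only the 2 called genes with the largest change at 24 h entered. That choice favours a difference from 8 h in these same libraries, so the count of 9 is partly built in. Among the polarity genes the response was larger at 24 h by 1.2 for KAN1 (adjusted p = 5.69e-05) and by 1.91 for KAN4 (adjusted p = 0.000755), on the log2 scale. Both were higher in all 3 induced libraries than in any mock library at each time.

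In the other lists the difference was 2.66 for BOP1 (adjusted p = 8.36e-05), which was lower in induced roots at 8 h and higher at 24 h. It was -1.33 for TAS3 (6.45e-05), -0.80 for ETT (3.14e-05), -0.63 for ATHB8 (0.000179), -0.42 for CNA (0.00205), -0.57 for KNAT6 (0.000473) and -0.53 for BOP2 (0.00375), each further below 0 at 24 h. Over all tested genes 18.2% were called higher and 22.6% lower in this comparison.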

How the results depend on the processing

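No fold change of a polarity gene changed sign under the 18 alternatives. YAB1 and the 4 KANADI genes at 8 h, and all 7 tested genes at 24 h, stayed called throughout. The number called at 8 h was 6, and 5 to 6 with 1 library left out, and at 24 h it was 7 in each fit. These numbers include YAB1, and at 24 h AS2, which passed the filter only through their counts in induced roots. Over all tested genes 22.3% were called higher and 23.1% lower at 8 h, and 38.3% and 34.0% at 24 h. A steady count therefore does not set these genes apart from the rest. The difference of responses had 2 called, and 2 to 3 with 1 library left out. AS1 at 8 h was not called with total library size (log2 fold change -0.26, adjusted p = 0.0766), and AS2 at 8 h was called there (2.42, 0.0477). AS2 at 8 h did not pass the filter when only the groups compared were fitted. With total library size the median log2 fold change over all genes shifted by 0.142 (24 h) and 0.096 (8 h). Between mock times 142 genes were called, beside 271 with the replicate block, 385 with DESeq2, 0 with only those groups and 1 to 204 with a library left out (1 to 20 without any mock library except mock 24 h replicate 2, without which it was 150). The labels do not say that a replicate number marks a shared batch, so the numbers were not taken as pairs. Same-numbered induced and mock libraries had correlations of 0.171, -0.004 and 0.035 at 8 h, and 0.253, 0.059 and 0.121 at 24 h. Unlike-numbered ones ran from -0.15 to 0.11 at 8 h and from -0.266 to 0.132 at 24 h. A shared batch is not excluded by these values. The replicate block gave 6 polarity genes at 8 h and 7 at 24 h. Over all genes it called 10360 at 8 h, beside 4785 higher and 4963 lower without it. In induced roots between times, a comparison added after the values were seen, 6 were called, and 5 to 7 over the alternatives. Depth limits YAB2, YAB3, YAB5 and AS2 at 8 h, which had at most 7 counts in a group.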
